A study of Homo sapiens with 95 samples.

Results

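NRF2, the protein of the gene NFE2L2, is a transcription factor that is held at low levels by KEAP1, which hands it to the proteasome. When oxidants or electrophiles disable KEAP1, NRF2 enters the nucleus, pairs with a small MAF protein and binds antioxidant response elements near genes for quinone reduction, glutathione and thioredoxin supply, NADPH production and iron storage. In airway epithelium the pathway is known for protection against smoke, and it is often switched on by mutation in squamous lung tumours. The comparison described here sets AALE cells that overexpress NRF2 against AALE cells that carry the HcRed vector, both in the vehicle DMSO, and asks which gene families and pathways moved beside the classic NRF2 targets.

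The comparison used 6 of the 95 samples of the series, 3 of NRF2 and 3 of HcRed, each chosen by its label. AALE cells are immortalized bronchial epithelial cells of human origin, and all 6 samples share this parent. HcRed is a red fluorescent reporter, and its vector without a further gene served as the control for the overexpression lines. Cells had been grown in 24-well plates to confluency over 24 h before the medium was replaced and DMSO added. The sources used here give neither the promoter of the vectors nor the number of derived lines or clones behind each genotype. A difference between the lines and an effect of NRF2 therefore cannot be told apart within these 6 samples. RNA was profiled by sparse full length sequencing (SFL), a barcoded and pooled RNA-seq method. Of 27978 genes listed, 14035 had a mean count above 1 over the 6 samples and were tested.

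Counted reads ranged from 694898 to 1173281 per sample, so that 3 counts correspond to between 2.56 and 4.32 CPM, the gene count scaled to a common library total with TMM factors. Levels below are CPM, and a difference is the log2 fold change of NRF2 over HcRed with its standard error from limma on voom-transformed counts. A gene is described as called, higher or lower when the Benjamini-Hochberg adjusted p of that fit was below 0.05. The study describes its replicates as biological, while the sources used here do not say how they were separated, so p-values measure the spread between these samples. The samples are bulk RNA, in which fewer cells of a type and less RNA per cell cannot be told apart.

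NFE2L2 itself gives the check of the labels. It stood at 233, 209 and 212 CPM in the 3 HcRed samples and at 1586, 1609 and 1774 CPM in the 3 NRF2 samples, a rise of 2.91 ± 0.08 on the log2 scale (SE, n = 3 against 3; limma adjusted p = 7.50e-47). The groups were far apart. Over the 8 lines of the series in DMSO, each with 3 samples, NFE2L2 lay between 146 and 299.5 CPM in the 7 lines other than NRF2.

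Of the 14035 genes tested, 1005 (7.16%) were called, with 457 (3.26%) higher and 548 (3.90%) lower in NRF2. The median log2 fold change over all genes was 0.0025, and the median size of the change among called genes was 0.56. Beyond a 2-fold change, 105 genes were higher and 94 lower. More was called among deeply counted genes, with 8.46% higher and 11.6% lower among the 2494 genes that averaged at least 100 counts. DESeq2, a more sparing test on these data, called 307 genes (2.19%), 1.02% higher and 1.17% lower, all of them also called by limma. Calls that held in each of the 6 fits with 1 sample left out numbered 363 (2.59%). The groups did not overlap for 23.0% of genes tested.

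Among the proteins that control NRF2, 2 of the 18 tested were called, both higher, against 7.16% of all genes called. SQSTM1, the autophagy receptor that sequesters KEAP1, rose from 149, 167 and 146 CPM to 202, 201 and 217 CPM, a difference of 0.44 ± 0.10 (limma adjusted p = 0.00252). NFE2L1, a related factor that sustains proteasome gene expression, rose by 0.38 ± 0.08 (adjusted p = 0.000631). DESeq2 did not call SQSTM1 (adjusted p = 0.062). KEAP1 differed by -0.02 ± 0.16 (adjusted p = 0.971). The small MAF partners did not pass either, with 0.43 ± 0.21 for MAFG (adjusted p = 0.221), 0.11 ± 0.26 for MAFK and -0.96 ± 0.65 for MAFF, a gene with few reads. BACH1, the repressor that competes for the same sites, stood at -0.31 ± 0.14 (adjusted p = 0.192).

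The 30 classic targets form the reference for everything that follows. Of these, 6 were higher and none lower, against 3.26% and 3.90% of all genes, with a median of 0.16. The largest of these 6 differences was in iron storage. FTL, the ferritin light chain, rose from 197, 166 and 180 CPM to 370, 370 and 338 CPM, a difference of 0.98 ± 0.09 (limma adjusted p = 1.54e-13), and the ferritin heavy chain FTH1 rose by 0.56 ± 0.07 (adjusted p = 2.62e-08). TFRC, the transferrin receptor that brings iron into the cell, rose from 200, 179 and 190 CPM to 292, 303 and 298 CPM, with no overlap in any of these 3 genes.

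TKT, the transketolase of the pentose phosphate pathway, stood at 401, 448 and 388 CPM in HcRed and at 612, 580 and 561 CPM in NRF2, a rise of 0.52 ± 0.07 (adjusted p = 3.56e-08). NQO1, a quinone reductase and the textbook reporter of NRF2 activity, rose from 115, 128 and 125 CPM to 188, 172 and 157 CPM, a difference of 0.50 ± 0.11 (limma adjusted p = 0.00175, DESeq2 adjusted p = 0.051). The groups did not overlap for either gene. Calls for TALDO1 (0.50 ± 0.14, adjusted p = 0.0153) and TXNRD1 (0.23 ± 0.08, adjusted p = 0.0447) were less secure. TALDO1 lost its call without NRF2 replicate 2 (adjusted p = 0.213) or without HcRed replicate 3 (adjusted p = 0.192). TXNRD1 kept its call in 1 of the 6 fits with 1 sample left out, the one without HcRed replicate 3, and its adjusted p was between 0.0735 and 0.148 in the other 5.

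Several targets that are standard readouts of NRF2 did not pass the test, and these were picked out after their values were seen. The glutathione synthesis subunits GCLC and GCLM differed by -0.03 ± 0.11 (adjusted p = 0.928) and -0.12 ± 0.14 (adjusted p = 0.695). SRXN1, which repairs oxidized peroxiredoxins, differed by 0.05 ± 0.13. SLC7A11, the cystine importer, stood at 136, 117 and 171 CPM in HcRed and at 104, 103 and 150 CPM in NRF2, with overlapping groups and a difference of -0.28 ± 0.13 (adjusted p = 0.215). ME1, a source of NADPH, differed by -0.09 ± 0.14. Beyond TKT and TALDO1, the list of NADPH, pentose phosphate and nucleotide supply had 0 of 27 members called by limma.

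**Figure D1:**
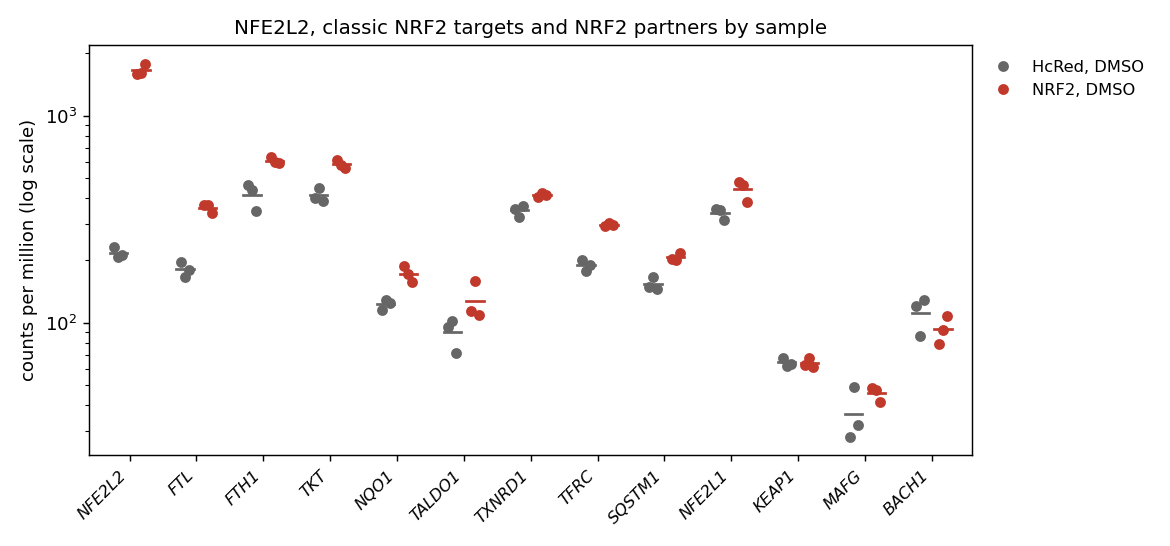
CPM on a log scale (y axis) for NFE2L2, called NRF2 targets, TFRC and NRF2 partners (x axis) in each sample, with HcRed in grey, NRF2 in red and a bar at each group mean. NFE2L2 stands at 1586 to 1774 CPM in NRF2 against 209 to 233 CPM in HcRed, while the targets move by much less and KEAP1 overlaps between the groups.

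The core of the antioxidant response element, TGAC and GCA separated by any 3 bases, was searched on both strands in the 1000 bases upstream of each gene start on GRCh37, with gene starts from GENCODE. It occurred upstream of 1234 of 13025 tested genes with a position (9.47%), of 39 of 431 genes called higher (9.05%), of 45 of 533 genes called lower (8.44%) and of 7 of the 29 classic targets with a position (24.1%). The share was near that of all genes in both called groups. Of the 6 classic targets called higher, 2 had a match. The matches below are examples upstream of called genes that the text describes, 4 that rose and 1 that fell, with the matched letters in capitals. This split is a choice and not a result. Matches also lay upstream of DKK1, GPI and SDHD, which rose, and of GNAS, ITGB5, IL6ST, COL4A5 and TSPAN7, which fell. A match is a string of letters and not a measured binding site.
NQO1, chr16:69760899-69760928, minus strand: gcagtcacagTGACTCAGCAgaatctgagc
TALDO1, chr11:746501-746530, plus strand: acccagggacTGACTCAGCAtaagcggaca
KRT17, chr17:39781199-39781228, minus strand: gggggtcagcTGACACTGCAacccatttcc
S100A9, chr1:153329726-153329755, minus strand: agctggttgcTGACTTGGCAggaaggggac
CTSZ, chr20:57583313-57583342, minus strand: acttctgggcTGACGAAGCAgctctccagc
NQO1 and TALDO1 share the same 10 matched letters, at 347 and 904 bases from their gene starts. The match of KRT17 lies 124 bases and the one shown for CTSZ 39 bases from the gene start. CTSZ has another match at 395 bases.

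Genes for attachment to the basement membrane were lower in NRF2. Of 30 tested members of the list of hemidesmosome, laminin and matrix integrin genes, 13 were lower and 1 higher, against 3.90% and 3.26% of all genes, with a median of -0.30. Most of these genes are deeply counted, and of the 16 that averaged at least 100 counts, 10 were lower, against 11.6% of all genes at that depth. DESeq2 called 8 of the list lower, against 1.17% of all genes. Summed over the list, the level was 12499.8, 12809 and 12231 CPM in HcRed and 11237, 11350 and 10667 CPM in NRF2.

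Laminin chains, which form the adhesive sheet of epithelial basement membrane, were lower. LAMA3 stood at 711, 744 and 740 CPM in HcRed and at 455, 420 and 506 CPM in NRF2, a difference of -0.67 ± 0.07 (limma adjusted p = 1.12e-12). LAMB3 went from 363, 399 and 398 CPM to 247, 244 and 228 CPM, a difference of -0.68 ± 0.09 (adjusted p = 4.18e-09). Neither gene had overlapping groups.

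Of the laminin receptor in hemidesmosomes, the alpha chain moved and the beta chain did not pass. ITGA6, the alpha 6 integrin, fell from 978, 854 and 914 CPM to 561, 641 and 626 CPM, by 0.61 ± 0.06 on the log2 scale (adjusted p = 1.15e-12). ITGB4, its beta 4 partner, stood at 683, 736 and 603 CPM in HcRed and at 661, 758 and 670 CPM in NRF2, with overlapping groups and a difference of 0.06 ± 0.06 (adjusted p = 0.683). COL17A1, the transmembrane collagen of the hemidesmosome, went from 463, 556 and 513 CPM to 351, 357 and 349 CPM, a difference of -0.51 ± 0.08 (adjusted p = 3.74e-07). DST, whose epithelial product ties the hemidesmosome to keratin filaments, fell by 0.47 ± 0.04 (adjusted p = 1.45e-15). Its neighbour in that plaque, plectin (PLEC), rose by 0.37 ± 0.03 (adjusted p = 2.03e-14), a value of 0.10 once GC content and gene length were accounted for.

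Integrins for other matrix proteins were lower as well. ITGB1, the beta 1 chain shared by many receptors, stood at 787, 747 and 827 CPM in HcRed and at 512, 534 and 569 CPM in NRF2, a difference of -0.56 ± 0.06 (adjusted p = 9.13e-11). ITGA3 fell by 0.44 ± 0.08 (adjusted p = 2.78e-05) and ITGA2, a collagen receptor chain, by 0.62 ± 0.14 (adjusted p = 0.0016, DESeq2 adjusted p = 0.059). Calls for ITGA1 (-0.93 ± 0.27), ITGB5 (-0.58 ± 0.14), ITGAV (-0.33 ± 0.09) and LAMA5 (-0.26 ± 0.08) were less secure. Without NRF2 replicate 3 the adjusted p was 0.167 for ITGA1, 0.063 for ITGB5 and 0.308 for LAMA5, and without NRF2 replicate 1 it was 0.111 for ITGAV.

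Among secreted matrix genes, changes went in both directions. Of 35 tested, 7 were lower and 1 higher, against 3.90% and 3.26% of all genes, with a median of -0.23. FN1, fibronectin, stood at 762, 832 and 768 CPM in HcRed and at 271, 241 and 264 CPM in NRF2, 3.01-fold lower with a difference of -1.59 ± 0.08 (limma adjusted p = 4.17e-29). THBS1, the adhesive glycoprotein thrombospondin 1, went from 588, 632 and 682 CPM to 245, 254 and 313 CPM, a difference of -1.23 ± 0.08 (adjusted p = 3.87e-21). VCAN, the proteoglycan versican, went from 53.8, 56.1 and 57.7 CPM to 18.2, 9.70 and 11.5 CPM, a difference of -2.06 ± 0.28 (adjusted p = 3.86e-08). The groups were well apart in all 3 genes.

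TNC, the wound-associated glycoprotein tenascin C, followed with 62.4, 69.1 and 58.7 CPM in HcRed and 29.4, 24.3 and 31.2 CPM in NRF2 (-1.13 ± 0.20, adjusted p = 4.31e-05). SPARC, a collagen-binding matricellular protein, moved the other way, from 52.96, 44.6 and 54.8 CPM to 128, 130 and 146 CPM, a rise of 1.37 ± 0.15 (adjusted p = 6.63e-11). The smaller falls of COL12A1, EFEMP1 and COL4A5, between -0.51 and -0.40, did not hold in each fit with 1 sample left out, with an adjusted p of 0.234 for COL12A1 without HcRed replicate 1, and of 0.103 for EFEMP1 and 0.237 for COL4A5 without NRF2 replicate 1. VIM, the mesenchymal intermediate filament vimentin, fell from 46.1, 54.7 and 53.8 CPM to 18.2, 19.4 and 27.7 CPM (-1.23 ± 0.23, adjusted p = 9.75e-05). NT5E, the ectonucleotidase CD73, fell from 141, 132 and 146 CPM to 37.4, 40.0 and 50.8 CPM, by 1.72 ± 0.16 on the log2 scale (adjusted p = 1.56e-13).

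**Figure D2:**
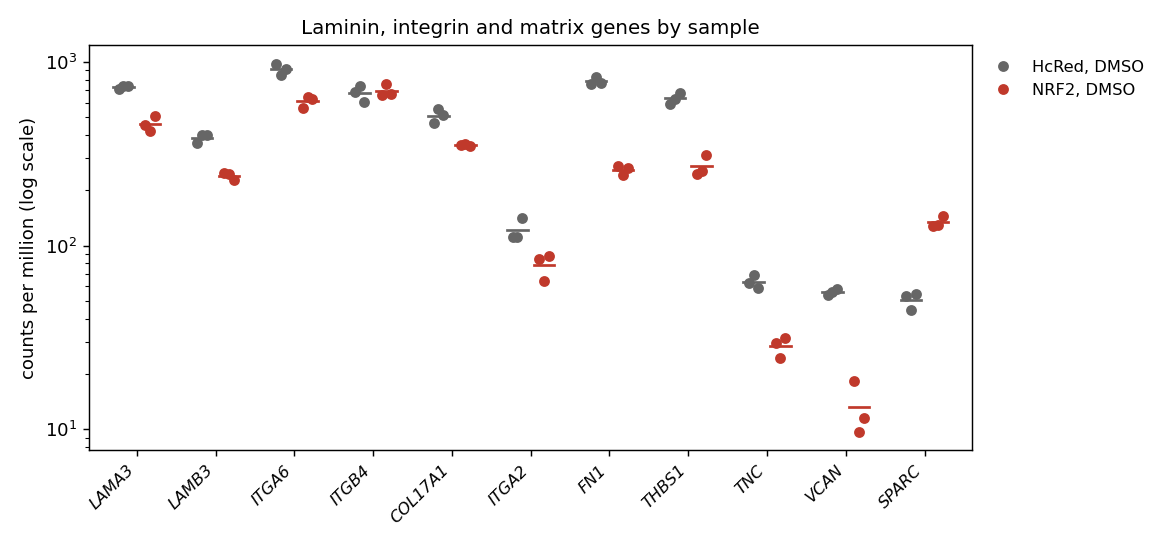
CPM on a log scale (y axis) for laminin, integrin and matrix genes (x axis) in each sample, with HcRed in grey, NRF2 in red and a bar at each group mean. LAMA3, LAMB3, ITGA6, COL17A1, FN1, THBS1, TNC and VCAN lie lower in NRF2 in all samples, SPARC lies higher at 128 to 146 CPM, and ITGB4 overlaps.

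Fibronectin also differed widely among lines that did not receive NRF2. In one scaling of the 24 DMSO samples, FN1 was 243 to 270 CPM in NRF2, 755 to 820 CPM in HcRed, 961 to 1168 CPM in FGFR1, 1419 to 1666 CPM in PIK3CA and 1707 to 1829 CPM in NRG1, the overexpression lines of the series. The lines made with CRISPR reagents were at 103 to 134 CPM (GFP control), 281 to 337 CPM (FAT1) and 429 to 478 CPM (CDKN2A). The NRF2 line was thus the lowest of the 5 vector lines and was not the lowest of the 8.

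Keratins moved in both directions. The list holds 17 tested genes, VIM among them, with a median of 0.31. Of the 17, 7 were higher and 3 lower, against 3.26% and 3.90% of all genes. DESeq2 called 6 of them higher, all but KRT14. KRT7, a simple epithelial keratin, rose from 222, 186 and 191 CPM to 721, 650 and 642 CPM, 3.34-fold with a difference of 1.74 ± 0.08 (limma adjusted p = 6.07e-29). KRT8, which pairs with KRT18 in simple epithelia, rose from 96.5, 92.1 and 110 CPM to 241, 205 and 187 CPM, a difference of 1.08 ± 0.12 (adjusted p = 7.66e-11). KRT15, a basal cell keratin, rose from 17.1, 18.7 and 13.7 CPM to 57.7, 70.4 and 41.6 CPM (1.74 ± 0.25, adjusted p = 3.56e-07). For all 3 the groups did not overlap.

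Further keratins of basal and stratified epithelium rose. KRT17, induced in injured and squamous epithelium, went from 1290, 1435 and 1253 CPM to 2212, 2201 and 1847 CPM, a difference of 0.67 ± 0.05 (adjusted p = 7.15e-20). KRT16, its stress-inducible relative, rose by 1.18 ± 0.19 (adjusted p = 2.60e-06). KRT5, the main keratin of basal cells, rose from 4191, 4104 and 4018 CPM to 5352, 5306 and 5037 CPM, by 0.35 ± 0.02 (adjusted p = 1.42e-20). Its partner KRT14 stood at 539, 609 and 466 CPM against 702, 674 and 591 CPM, with overlapping groups (0.31 ± 0.07, adjusted p = 0.00128, and 0.0506 without NRF2 replicate 1). KRT14, KRT16 and KRT17 are close copies whose reads could be split in counting.

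In the other direction, KRT19 fell from 764, 847 and 731 CPM to 571, 545 and 512 CPM, by 0.51 ± 0.06 on the log2 scale (adjusted p = 4.16e-09). KRT6A, a keratin of wounded and hyperproliferative epithelium, fell from 2147, 2014 and 1982 CPM to 1741, 1744 and 1566 CPM, by 0.29 ± 0.04 (adjusted p = 7.85e-08). KRT7-AS, annotated antisense to KRT7, rose by 1.33 ± 0.33 (adjusted p = 0.00483). The sources used here do not state whether counting used strand, and without strand its reads and those of KRT7 cannot be told apart.

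**Figure D3:**
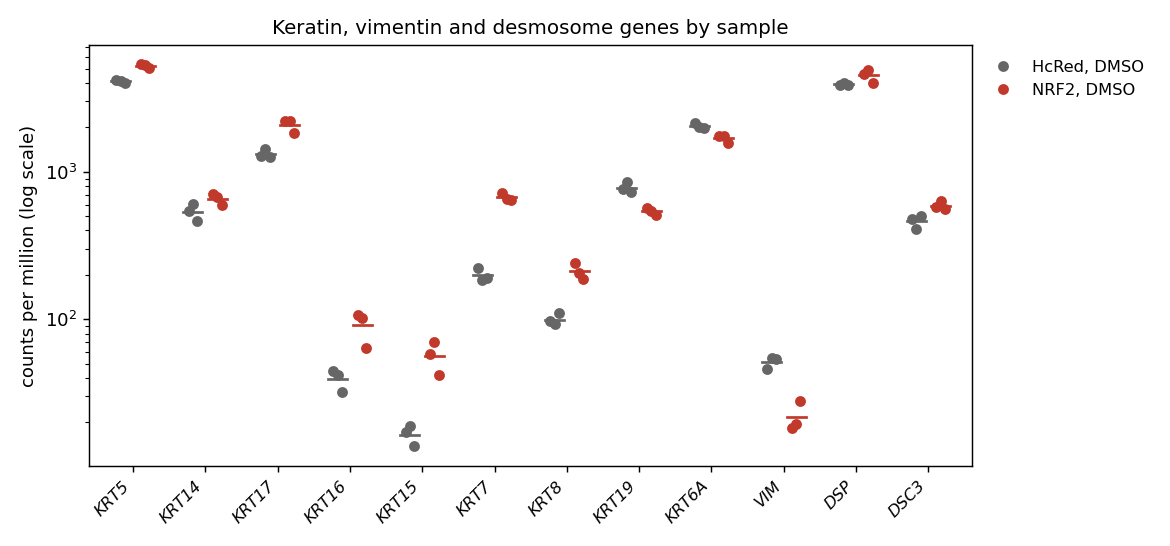
CPM on a log scale (y axis) for keratins, vimentin and desmosome genes (x axis) in each sample, with HcRed in grey, NRF2 in red and a bar at each group mean. KRT7 at 642 to 721 CPM in NRF2 and KRT8 and KRT15 stand clear above HcRed, KRT19, KRT6A and VIM stand below it, and KRT14 and DSP overlap.

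KRT7 was at 877 to 1059 CPM in PIK3CA, 442 to 490 CPM in FGFR1 and 105 to 133 CPM in NRG1, and at 0 to 33.0 CPM in the 3 lines made with CRISPR reagents. TERT, the catalytic subunit of telomerase, had a similar order of levels and was named after its values were seen. AALE cells carry a TERT transgene from their immortalization, and its reads cannot be told apart from those of the gene. TERT rose from 319, 347 and 285 CPM in HcRed to 700, 722 and 654 CPM in NRF2 (1.14 ± 0.07, adjusted p = 1.61e-21), and it stood at 1076 to 1205 CPM in PIK3CA and at 4.04 to 66.8 CPM in the CRISPR lines. Both genes thus differed by far more between lines without NRF2 than between NRF2 and HcRed.

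Of 31 cell junction genes, 3 were higher and 1 lower, against 3.26% and 3.90% of all genes, with a median of -0.03. All 3 higher calls were among the 14 that averaged at least 100 counts, a depth at which 8.46% of all genes were higher. The list had 10 of 31 higher and 3 lower in the carcinogen-treated samples and 9 of 30 higher and none lower against the other overexpression lines, comparisons described further on in which 8.74% and 6.04% of all genes were higher. The desmosomal cadherin DSC3 rose from 478, 410 and 502 CPM to 579, 638 and 556 CPM (0.33 ± 0.07, adjusted p = 0.000605). DSP, the desmosome plaque protein desmoplakin, differed by 0.21 ± 0.03 in limma (adjusted p = 1.07e-06), with overlapping groups and a DESeq2 adjusted p of 0.32. Giant cadherins of the FAT family, which set planar polarity and feed into Hippo signalling, split. FAT4 fell from 71.8, 92.1 and 77.3 CPM to 23.3, 25.5 and 31.2 CPM (-1.55 ± 0.21, adjusted p = 2.24e-08). FAT2 rose from 554, 671 and 571 CPM to 880, 921 and 814 CPM (0.57 ± 0.06, adjusted p = 4.46e-11), and FAT1 rose by 0.44 ± 0.06 (adjusted p = 4.93e-08).

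Angiomotin (AMOT), a junction protein that restrains YAP, had the largest rise after NFE2L2 among called genes that averaged at least 10 counts and did not overlap. It stood at 8.54, 7.20 and 8.80 CPM in HcRed and at 63.8, 59.4 and 48.5 CPM in NRF2, 6.54-fold higher with a difference of 2.71 ± 0.32 (adjusted p = 6.31e-10). On the list of Hippo and YAP targets, 3 of 26 genes were higher and 2 lower, against 3.26% and 3.90% of all genes. AXL, a receptor kinase and YAP target, was lower by 0.71 ± 0.16 on the log2 scale (adjusted p = 0.0014, DESeq2 adjusted p = 0.0501). Among the other lines, AMOT came closest to NRF2 in FAT1 (23.9 to 45.7 CPM) and in the GFP control (21.9 to 29.8 CPM).

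Secreted Wnt regulators changed within a list of 29 tested genes, 4 higher and 1 lower, against 3.26% and 3.90% of all genes. SFRP1, a secreted Wnt antagonist, went from 448, 390 and 431 CPM to 208, 211 and 214 CPM (-1.01 ± 0.09, adjusted p = 1.63e-15). WNT10A, a ligand of epithelial appendages, rose from 6.83, 5.76 and 5.87 CPM to 24.3, 25.5 and 17.3 CPM (1.75 ± 0.39, adjusted p = 0.00115). DKK1, another antagonist, rose by 0.67 ± 0.14 (adjusted p = 0.000447). The Notch receptor NOTCH3 rose from 50.4, 46.1 and 46.0 CPM to 85.0, 82.5 and 83.2 CPM (0.80 ± 0.16, adjusted p = 0.000355), alone among 16 tested Notch genes.

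Guidance and growth factor genes gave few calls per list and large single values. SEMA3A, a repulsive guidance cue, fell from 29.0, 46.1 and 41.1 CPM to 10.1, 14.6 and 11.5 CPM (-1.59 ± 0.30, adjusted p = 9.19e-05). Its receptor NRP1 fell from 45.3, 59.0 and 67.5 CPM to 28.3, 24.3 and 15.01 CPM (-1.31 ± 0.24, adjusted p = 3.92e-05). FGFR3 rose from 87.1, 104 and 87.0 CPM to 177, 169 and 157 CPM (0.88 ± 0.12, adjusted p = 1.10e-07). IGFBP2, which binds insulin-like growth factors, rose by 1.46 ± 0.16 (adjusted p = 8.09e-11), and FGFBP1, which releases FGFs from matrix, fell by 0.85 ± 0.17 (adjusted p = 0.000191).

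Of the genes induced through ERK, 1 of 26 was higher and 3 were lower, against 3.26% and 3.90% of all genes. In the carcinogen-treated samples described further on, 16 of 27 were lower and none higher, where 9.80% of all genes were lower. Against the other overexpression lines, 9 of 27 were lower and none higher, where 5.35% of all genes were lower. Against HcRed in DMSO, PHLDA1 fell by 1.31 ± 0.31 on the log2 scale (limma adjusted p = 0.00208). The ERK phosphatase DUSP6 fell by 1.75 ± 0.43 (limma adjusted p = 0.00412, and 0.0567 without NRF2 replicate 2). DESeq2 called neither (adjusted p = 0.073 and 0.066). CCND1, the G1 cyclin D1, fell from 148, 143 and 169 CPM to 94.1, 89.8 and 93.5 CPM (-0.73 ± 0.13, adjusted p = 1.86e-05). MYC, a driver of growth genes, rose from 92.3, 90.7 and 95.9 CPM to 166, 148 and 170 CPM (0.79 ± 0.12, adjusted p = 1.71e-06). Neither gene had overlapping groups.

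Epithelial transcription factors had 5 of 38 higher and 2 lower, against 3.26% and 3.90% of all genes. IRX2 rose from 35.0, 37.4 and 42.1 CPM to 98.2, 102 and 110 CPM (1.43 ± 0.17, adjusted p = 1.06e-09), and TFAP2A, a factor of surface ectoderm, rose by 0.70 ± 0.13 (adjusted p = 0.000123). TFCP2L1 fell by 0.47 ± 0.09 (adjusted p = 0.000199). SNAI2, which represses epithelial genes and marks basal cells, differed by -0.77 ± 0.18 (adjusted p = 0.00168, and 0.0659 without NRF2 replicate 1). The alarmins S100A9 and S100A8 rose, S100A9 from 92.3, 92.1 and 95.9 CPM to 200, 156 and 167 CPM (0.90 ± 0.12, adjusted p = 6.05e-08), and S100A8 by 0.98 ± 0.25 (adjusted p = 0.00595, DESeq2 adjusted p = 0.11).

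Metabolic lists outside the classic targets held scattered calls. SLC7A5, the light chain of the large neutral amino acid transporter LAT1, rose from 1450, 1551 and 1306 CPM to 2093, 2201 and 2058 CPM (0.57 ± 0.04, adjusted p = 7.98e-19), and its heavy chain SLC3A2 by 0.30 ± 0.07 (adjusted p = 0.00299). Other genes of the amino acid response run by ATF4 went down, among them the serine synthesis enzyme PSAT1, from 193, 203 and 196 CPM to 134, 132 and 121 CPM (-0.60 ± 0.11, adjusted p = 4.73e-05), and the glutamine carrier SLC38A2 (-0.39 ± 0.07, adjusted p = 5.06e-05). That list counted 2 of 27 higher and 4 lower, against 3.26% and 3.90% of all genes. DESeq2 did not call SLC3A2 (adjusted p = 0.053).

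Of 32 genes of cholesterol and fatty acid synthesis, 5 were lower and 2 higher. The list is deeply counted, with 22 members that averaged at least 100 counts, a depth at which 11.6% of all genes were lower and 8.46% higher. In the carcinogen-treated samples 17 of 32 were lower and 1 higher, where 9.80% and 8.74% of all genes were. Against the other overexpression lines 10 of 32 were lower and 1 higher, where 5.35% and 6.04% of all genes were. Against HcRed in DMSO, the fatty acid desaturases FADS2 and FADS1, neighbours on chromosome 11, fell together. FADS2 went from 303, 251 and 269 CPM to 187, 176 and 151 CPM (-0.69 ± 0.10, limma adjusted p = 3.20e-07). FADS1 fell by 0.54 ± 0.08 on the log2 scale (adjusted p = 6.78e-07). CPT1A, the gatekeeper of mitochondrial fatty acid uptake, fell from 29.0, 17.3 and 18.6 CPM to 7.08, 4.85 and 3.46 CPM (-2.002 ± 0.44, adjusted p = 0.000957). GPX3, a secreted glutathione peroxidase, fell by 1.83 ± 0.41 (adjusted p = 0.00134). In the opposite direction, PRDX2, a cytosolic peroxiredoxin, stood 0.81 ± 0.20 higher (adjusted p = 0.00315, DESeq2 adjusted p = 0.067), ALDH1A3, which makes retinoic acid, 0.64 ± 0.11 higher (adjusted p = 1.75e-05), and the glycolytic isomerase GPI 0.45 ± 0.08 higher (adjusted p = 1.95e-05). The 18 tested cytochrome P450 genes had 2 higher and 1 lower, against 3.26% and 3.90% of all genes. CYP1B1, induced by aryl hydrocarbons, fell by 0.71 ± 0.14 (adjusted p = 0.000357). CYP1A1, induced by the same ligands and named after its values were seen, was called higher on few reads, with 2, 0 and 0 counts in HcRed and 10, 6 and 9 counts in NRF2 (limma adjusted p = 0.00315, DESeq2 adjusted p = 0.0773, and 0.0561 in limma without HcRed replicate 3).

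Some large families had mostly small positive differences. Of 75 cytosolic ribosomal protein genes, 14 were higher and 1 lower, 63 had a positive log2 fold change, and the median was 0.16. Of the 75, 56 averaged at least 100 counts, a depth at which 8.46% of all genes were higher and 11.6% lower. RPS14 rose from 291, 248 and 288 CPM to 386, 391 and 417 CPM (0.51 ± 0.08, adjusted p = 3.24e-06) and RPL28 by 0.55 ± 0.11 (adjusted p = 0.000163). Only 4 of the 14 held in each of the 6 fits with 1 sample left out, and 6 were called by DESeq2. Ribosomal protein genes have many processed copies that could take some of their reads.

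Nuclear genes of the respiratory chain had 6 of 36 higher and none lower, against 3.26% and 3.90% of all genes. Of the 36, 32 were positive, and the median was 0.18. ATP5F1A, a subunit of the ATP synthase, rose from 487, 425 and 440 CPM to 587, 548 and 539 CPM (0.30 ± 0.07, adjusted p = 0.00189), and SDHD, a membrane anchor of succinate dehydrogenase, by 0.72 ± 0.17 (adjusted p = 0.00269, DESeq2 adjusted p = 0.07). DESeq2 called 1 of the 6. Histone genes had 9 of 72 higher and none lower, with a median of 0.18. Of the 72, 35 averaged at least 100 counts, a depth at which 8.46% of all genes were higher and 11.6% lower. The linker histone gene HIST1H1A rose from 40.1, 46.1 and 44.99 CPM to 90.1, 71.6 and 100.5 CPM (0.999 ± 0.17, adjusted p = 1.63e-05), and H2AFX, the histone phosphorylated at DNA breaks, by 0.84 ± 0.13 (adjusted p = 1.23e-06). Histone genes are near copies of one another, and reads may be shared among them.

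**Figure D4:**
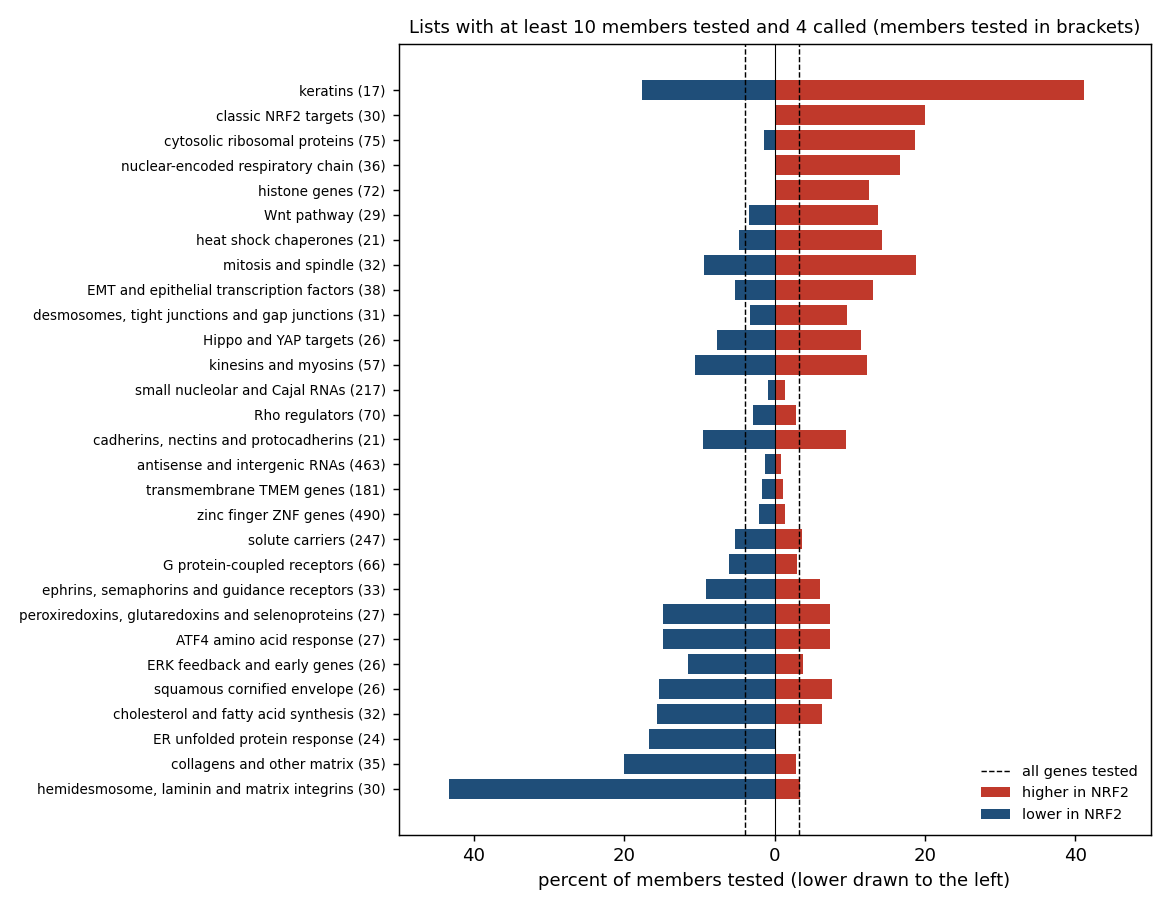
Percent of tested members called higher (right of 0) or lower (left of 0) in NRF2 for each list with at least 10 members tested and 4 called, with dashed lines at the shares of all genes tested (3.26% higher, 3.90% lower). Keratins, ribosomal proteins, respiratory chain genes and classic targets lie to the right, and attachment and matrix genes to the left.

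Several lists had counts too small to be read against the 7.16% called among all genes, such as proteasome subunits (0 of 40 higher, 2 lower), p53 targets (1 of 23 called), prostaglandin enzymes (0 of 15) and HOX genes (0 of 7) in limma. Of the proteasome calls, PSMA7 fell from 214, 217 and 203 CPM to 97.2, 108 and 105 CPM (-1.03 ± 0.12, adjusted p = 8.90e-11), and PSMA4 by 0.35 ± 0.10 (adjusted p = 0.0136, and 0.135 without NRF2 replicate 2). The one p53 target was the death receptor FAS (-0.90 ± 0.21, adjusted p = 0.00223, DESeq2 adjusted p = 0.076). Genes of the unfolded protein response of the endoplasmic reticulum had 4 of 24 lower, and none of the 4 held in each fit with 1 sample left out.

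Other large changes were in genes that had few reads. CPVL, a carboxypeptidase, rose from 16.2, 15.8 and 21.5 CPM to 66.8, 57.0 and 71.6 CPM (1.84 ± 0.24, adjusted p = 1.02e-08). IGF2BP1, a fetal RNA-binding protein, rose by 1.88 ± 0.36 (adjusted p = 0.000131), and CYFIP2, a part of the actin-regulating WAVE complex, by 1.96 ± 0.36 (adjusted p = 7.48e-05). TFPI2, a secreted inhibitor of matrix-degrading proteases, fell from 26.5, 20.2 and 31.3 CPM to 8.10, 2.43 and 8.08 CPM (-2.10 ± 0.42, adjusted p = 0.000214). TSPAN7, a tetraspanin, fell by 1.83 ± 0.26 on the log2 scale (adjusted p = 1.66e-07), and GALNT5, which starts mucin-type glycans, by 1.72 ± 0.30 (adjusted p = 1.53e-05). Each of these 6 genes was called in every fit with 1 sample left out. Their groups were separate, but this was a condition for a place among the largest rises or falls, from which they come. In the carcinogen-treated samples described further on, pooled over treatments, the groups overlapped for CYFIP2 and TSPAN7. There they did not overlap for CPVL, IGF2BP1, TFPI2 and GALNT5.

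The adhesion receptor ADGRL2 rose from 39.3, 44.6 and 31.3 CPM to 94.1, 107 and 100.5 CPM (1.41 ± 0.17, adjusted p = 2.84e-09). TRIM29, a basal and squamous cell gene, rose by 0.75 ± 0.10 (adjusted p = 3.46e-08), as did the monocarboxylate carrier SLC16A7 by 1.23 ± 0.21 (adjusted p = 1.71e-05). IL6ST, the shared signalling chain of the interleukin 6 receptor family, fell from 286, 307 and 314 CPM to 220, 190 and 192 CPM (-0.58 ± 0.09, adjusted p = 3.22e-06). The larger families grouped by symbol are to be read against 3.26% higher and 3.90% lower among all genes. Solute carriers had 9 of 247 higher and 13 lower, near these shares, and ZNF zinc finger genes 7 of 490 higher and 10 lower, below them. Kinesins and myosins had 7 of 57 higher and 6 lower. Of these, 31 averaged at least 100 counts, a depth at which 8.46% of all genes were higher and 11.6% lower.

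PSMA7 lies on chromosome 20, where neighbouring genes were called together. This pattern was seen in the data first, and the boundaries were drawn afterwards, so its values are a description. Among the 9833 genes that averaged at least 10 counts, 4.18% were higher and 5.35% lower. From GNAS to PCMTD2 at the end of the long arm (GRCh37 chr20:57414773-62936173), 29 of 36 such genes were lower (80.6%), none was higher, all 36 had a negative log2 fold change, and the median was -0.92. The summed level of these genes was 3444, 3576 and 3437 CPM in HcRed and 2028, 2137 and 1947 CPM in NRF2. GNAS, the stimulatory G protein subunit at the start of the stretch, fell from 530, 567 and 545 CPM to 275, 311 and 295 CPM (-0.90 ± 0.08, adjusted p = 1.50e-15), and CTSZ, a lysosomal protease, by 1.16 ± 0.16 (adjusted p = 3.03e-08).

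Directly before it, from HM13 to STX16 (chr20:30102231-57254582), 67 of 152 genes were higher and 2 lower, 143 were positive, and the median was 0.39. The sum was 21848, 22040 and 21909 CPM in HcRed and 27906, 27730 and 27493 CPM in NRF2, with no overlap. This stretch holds 3 of the 6 mitosis genes called higher, TPX2, AURKA and UBE2C. Of the 32 mitosis genes tested over the genome, 6 were higher and 3 lower. Among the 32, 27 averaged at least 100 counts, a depth at which 8.46% of all genes were higher and 11.6% lower. TPX2, which builds the spindle, went from 636, 665 and 587 CPM to 911, 913 and 874 CPM (0.52 ± 0.06, adjusted p = 7.02e-11). KIF20A, a cytokinesis kinesin encoded on chromosome 5, rose by 0.55 ± 0.10 (adjusted p = 2.94e-05), while TOP2A, encoded on chromosome 17, fell by 0.23 ± 0.04 (adjusted p = 8.24e-05). GSS, the last enzyme of glutathione synthesis, also lies there (0.64 ± 0.12, adjusted p = 0.000122). On the short arm of chromosome 20, 10 of 89 genes were lower and none higher, with a median of -0.23.

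**Figure D5:**
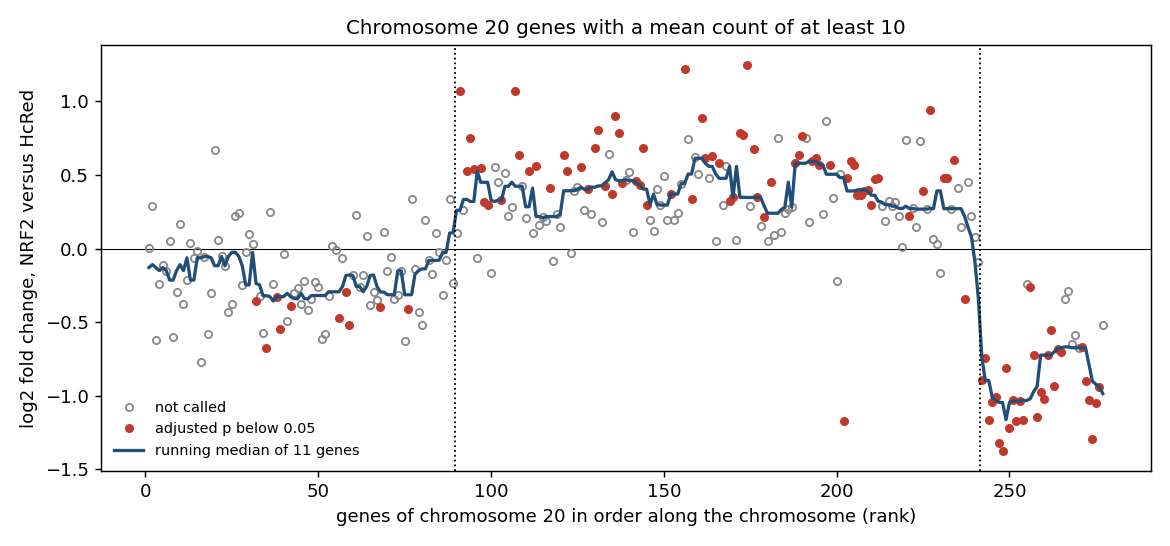
Log2 fold change of NRF2 over HcRed (y axis) for the 277 genes of chromosome 20 that averaged at least 10 counts, in chromosomal order (x axis), with called genes in red, a running median of 11 genes as a line, and dotted lines at the arm boundary and at GNAS. The line runs below 0 on the short arm, above 0 along most of the long arm, and drops at GNAS to the end.

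Other such stretches lay on chromosomes 11, 10 and 8. At the end of 11q, 16 of 38 genes were higher and none lower (median 0.69), among them ST14, the membrane protease matriptase, which rose from 89.7, 82.1 and 75.3 CPM to 152, 171 and 156 CPM (0.94 ± 0.13, adjusted p = 4.57e-08). On 10p, which holds ITGB1, VIM and NRP1, 25 of 82 genes were lower and none higher (median -0.34). At the end of 8q, which holds PLEC, 11 of 60 were higher and none lower (median 0.37, and 0.19 with GC content and length accounted for). Outside chromosome 20 and these 3 stretches, 295 of 8986 genes with a position were higher and 446 lower, with a median of -0.011. Without the genes of all these regions, 11 of the attachment genes were still counted lower and 7 of the keratins higher. Of 424 bins of 5 Mb with at least 8 genes at the same minimum of counts, 11 had a median above 0.3 and 18 below -0.3. Of these bins, 16 lay in the named regions, so medians of this size also occurred outside them. One outside, at 85 to 90 Mb of chromosome 11, had 4 of 12 genes lower and a median of -0.34. DNA copy number was not measured, and its part in these values was not tested.

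The same stretches can be read in the other lines. At the end of 20q the summed level was 1937 to 2152 CPM in NRF2 and 1728 to 1851 CPM in PIK3CA, the lowest 2 of the 8 lines. The remaining lines lay between 2837 and 4418 CPM, with HcRed at 3412 to 3525 CPM. In the long-arm stretch before GNAS, NRF2 (27350 to 27912 CPM) and PIK3CA (27155 to 27663 CPM) overlapped and were the highest, with HcRed at 21646 to 21835 CPM and the other 5 lines between 13714 and 23411 CPM. The end of 11q gave the same pair on top, at 5010 to 5095 CPM in NRF2 and 5226 to 5362 CPM in PIK3CA against 3352 to 4306 CPM elsewhere. On 10p, NRF2 (6959 to 7179 CPM) was instead near CDKN2A (6631 to 6810 CPM) and FAT1 (6011 to 6401 CPM), while PIK3CA was at 9181 to 9419 CPM. At the end of 8q, NRF2 (8316 to 9136 CPM) overlapped with PIK3CA (7964 to 8400 CPM), with HcRed at 6407 to 7196 CPM. The GFP control was the lowest line there, at 3757 to 4314.5 CPM.

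A second comparison of the same lines used 9 NRF2 and 9 HcRed samples treated with cigarette smoke condensate (CSC, 24 μg/ml), benzo(a)pyrene (BaP, 173 μM) or the tobacco nitrosamine NNK (490 μM), with treatment in the model. No sample is shared with the DMSO comparison, although the lines are the same. Of 14226 genes tested, 2638 (18.5%) were called, 1244 (8.74%) higher and 1394 (9.80%) lower. Of the 1005 genes called in DMSO, 725 (72.1%) were called here in the same direction and 6 in the opposite one, and these 725 make up 27.5% of the calls under carcinogens. Among genes not called in DMSO, 14.8% were called.

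Of 31 attachment genes tested there, 18 were lower and 3 higher, and of 37 matrix genes 13 were lower and 6 higher. Both lists are to be read against 9.80% and 8.74% of all genes. In the attachment list, LAMB3 and LAMA3 differed by -0.75 and -0.72 on the log2 scale, ITGA6 by -0.54 and COL17A1 by -0.53. FN1 had its lowest, median and highest values at 462, 623 and 908 CPM in HcRed and at 124, 257 and 325 CPM in NRF2, without overlap (-1.55). SPARC again rose, by 1.45. KRT7 and KRT8 rose by 1.56 and 0.92, and KRT19 and KRT6A fell by 0.69 and 0.49. Of 30 classic NRF2 targets tested there, 8 were higher and none lower. The lowest, median and highest values of NQO1 were 149, 304 and 363 CPM in HcRed and 204, 324 and 397 CPM in NRF2, with overlap.

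Several genes called in DMSO had smaller values or another sign under carcinogens. KRT5 differed by 0.07 (adjusted p = 0.0708), KRT16 by 0.24 (adjusted p = 0.2) and KRT14 fell by 0.20 on the log2 scale (adjusted p = 0.0249). MYC stood at 178, 211 and 271 CPM (lowest, median and highest) in HcRed and at 138, 211 and 280 CPM in NRF2, with a difference of -0.11 (adjusted p = 0.269). S100A9 differed by 0.17 (adjusted p = 0.0867) and FAT2 by -0.10. Whether these differences between treatments are larger than their errors was not tested. At the end of 20q the median log2 fold change was -0.89 and in the stretch before it 0.34.

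Against the other overexpression lines in DMSO (FGFR1, NRG1 and PIK3CA, equally weighted), which shares the 3 NRF2 samples, 1633 of 14335 genes (11.4%) were called, 866 (6.04%) higher and 767 (5.35%) lower in NRF2. Of 33 attachment genes tested there, 14 were lower and 4 higher. FN1 differed by -2.46, THBS1 by -1.52, VIM by -2.47 and NT5E by -2.10, while LAMB3 (-0.30), ITGA6 (-0.23) and COL17A1 (-0.18) differed by less. KRT7 was higher by 0.80, KRT16 by 2.88, KRT17 by 1.61 and KRT14 by 1.41, and KRT19 (0.19) and KRT6A (0.23) were higher, the reverse of their sign against HcRed. S100A9 differed by 2.89. FTL was higher by 0.39, and NQO1 differed by 0.19 without passing (adjusted p = 0.159). Of 30 classic targets tested there, 5 were higher and 2 lower.

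The labelled cell type was checked against markers. All 14 basal airway epithelial markers were tested, and TP63, the master factor of basal cells, differed by 0.04 ± 0.11 (adjusted p = 0.901). Of these 14, KRT5, KRT14, KRT17 and NGFR were higher, and 5 were lower, among them ITGA6, LAMB3, COL17A1 and SNAI2. Among all genes, 3.26% were higher and 3.90% lower. Of the 14, 12 averaged at least 100 counts, a depth at which 8.46% of all genes were higher and 11.6% lower. The call for NGFR was lost without HcRed replicate 3 (adjusted p = 0.115). Of 12 ciliated and club cell markers 2 had enough reads to be tested, of 10 fibroblast markers 1, of 11 immune markers 3, of 8 neuroendocrine markers 1 and of 8 endothelial markers none. None of these 7 was called by limma, a number too small to be read against the 7.16% called among all genes.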

How the data were processed

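Human AALE cells were profiled by SFL RNA-seq. Per the labels and the study's methods, RNA was extracted by Qiazol, libraries were pooled from 96 samples and single 75-bp reads were generated. According to the submitters' processing notes the reads were trimmed with cutadapt 1.12, checked with FastQC 0.11.5, aligned to hg19 with STAR 2.5.2b and counted with featureCounts from Subread. The authors deposited counts, with 1 whole number per gene and sample and no normalization. Whether counting used strand is not given in the sources used here. The 6 samples of the DMSO comparison, the 9 DMSO samples of the FGFR1, NRG1 and PIK3CA lines, the 18 carcinogen-treated NRF2 and HcRed samples and the DMSO samples of the other lines entered.

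Those genes that averaged more than 1 count over the samples fitted were kept. Counts were normalized with TMM (edgeR 4.0.16 under R 4.3.3) and tested with limma 3.58.1 on voom-transformed counts, 2-sided, with Benjamini-Hochberg adjustment over all genes tested and a threshold of 0.05. The design, without a block, follows the study's methods. Other fits took DESeq2 1.42.0, the quasi-likelihood test of edgeR, size factors from DESeq2, other filters on low counts, 1 fit of all 24 DMSO samples, the replicate number as a block, and each sample left out in turn. A loess correction (span 0.3) for GC content and exon length and counts without the genes of the regional stretches were chosen after seeing the data. Depth was 694898 to 1173281 counted reads per sample. The precision of a single count covers counting error only, and the reads carry no stated molecular identifiers. Replicates of a group differed by more than counting noise, with a chi-square per degree of freedom of 1.16 to 1.43.

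The comparison, its members and the 55 gene lists and 20 symbol families were chosen with earlier results of these data known. Genes are named as NFE2L2, as the 15 largest rises or falls among called genes that averaged at least 10 counts and whose groups did not overlap, as up to 6 called members per list above the same minimum by size of change, as 6 NRF2 regulators, or as cell type markers. For the largest rises and falls, separate groups in DMSO are thus a condition of the choice and not a result. KRT19, KRT6A, ITGA3, ITGAV, ITGB1, ITGB5, LAMA5, DST, PLEC, EFEMP1, COL4A5, GNAS, TOP2A, TERT, GCLM, GCLC, SRXN1, SLC7A11, ME1 and CYP1A1 were named after their values were seen. The lists come from general knowledge. Positions come from GENCODE models on GRCh37, where 23979 of 27978 symbols (85.7%) had 1 position.

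In simulated data for this comparison, drawn for 14035 genes with 200 genes averaging at least 10 counts changed 2-fold, limma-voom recovered 79.5%, and 5.36% of its calls were unchanged genes. DESeq2 recovered 60.5%, and 0% of its calls were unchanged genes. The simulation gave every gene the same spread beyond counting noise, which the real genes need not share. These shares are therefore not error rates of the calls in the real data.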

Additional observations from a re-analysis of the deposited data

How the results depend on the processing

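The count of 1005 genes became 307 with DESeq2 and lay between 567 and 1029 with 1 sample left out. It was 668 without HcRed replicate 1, 663 without HcRed replicate 3 and 567 without NRF2 replicate 1. With the replicate number as a block it was 1364 for NRF2 versus HcRed in DMSO, 1726 against the other overexpression lines (1633 without the block) and 3311 under carcinogens (2638 without the block). The labels do not say what the numbers mark. The main fits did not take the numbers as pairs, following the study's methods. Deviations of same-numbered NRF2 and HcRed samples in DMSO correlated by 0.0208 to 0.0664, small values that do not settle whether the numbers mark pairs. Each of these 6 samples correlated best with its own number, a hint from the data and not the design. The pattern recurred with CSC (0.0310 to 0.0774 for the same number) and NNK (0.0290 to 0.0542). It did not with BaP (-0.0344 to 0.0381). Against the other lines, DESeq2 called 796 genes, leaving out 1 sample gave 992 to 1658, and the count was 992 without NRF2 replicate 1 and 1077 without NRF2 replicate 2. Under carcinogens DESeq2 called 1703 and leaving out 1 sample gave 2241 to 2833. The remaining alternatives kept the count within 1.5-fold in each of these comparisons. Correction for GC content and length changed the DMSO count from 978 (489 higher, 489 lower) to 806 (381 higher, 425 lower). The log2 fold change of NFE2L2 was 2.86 to 2.97 with 1 sample left out. Attachment genes counted lower numbered 8 with DESeq2 and 9 to 13 with 1 sample left out, and keratins counted higher 6 to 7. Counts of other lists were less steady. Over all lists and both directions, 77 counts moved by more than 1.5-fold with DESeq2 and 71 did not, 40 moved and 108 did not with the GC and length correction, and with each sample left out 221 moved and 667 did not.

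Of the named genes past the threshold none changed sign in any alternative. Among those that did not pass, the correction gave -0.16 for ITGB4, -0.099 for MAFK, 0.0074 for GCLM, 0.027 for ME1 and -0.021 for SRXN1, each of the opposite sign. With 1 sample left out the values spanned 0, from -0.16 to 0.58 for CAPS, -0.69 to 1.23 for CD14, -0.16 to 0.35 for CD68, -0.098 to 0.14 for GCLC, -0.010 to 0.11 for ITGB4, -0.057 to 0.025 for KEAP1, -1.57 to 0.20 for MAFF, -0.11 to 0.38 for MAFK, -0.17 to 0.026 for ME1 and -0.044 to 0.17 for TP63. The cause was not tested. At this depth, differences in genes with few reads were often not detectable, and a gene that was not called is not shown to be unchanged.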
